A study of Homo sapiens with 27 samples.

Results

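The 10 genes described here mark or guide the endothelial cells that lead a growing vessel sprout: ESM1, APLN, APLNR, ANGPTL4, UNC5B, ROBO4, SLIT2, PLXND1, CXCR4 and INSR. They were taken by symbol from the 60604 gene entries used of the deposited count table, and all 10 were found. The 27 libraries come from EA.hy926, a human hybrid line of umbilical vein endothelium and A549 lung carcinoma, so every group shares that hybrid background. Control cells had no exposure. In 6 further groups the cells spent 48 h with material from ASC52telo, a line of adipose mesenchymal stromal cells (MSCs) immortalised with telomerase. Its young form was untreated. Its senescent form had received 1.5 µg/mL mitomycin C over 18 h to damage DNA, followed by 10 days of culture. Exposure was to their decellularised extracellular matrix (ECM, cleared of cells by 5 min in 20 mM NH4OH with 0.5% Triton), to their conditioned medium (CM) or to the MSCs themselves in co-culture. Each group is described on replicates 2 to 4 (21 libraries, 3 in each of 7 groups), and replicate 1 is shown apart. Senescent co-culture has no replicate 1.

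In angiogenic sprouting, vascular endothelial growth factor (VEGF) selects tip cells, which extend filopodia, while Notch signalling holds their neighbours in the stalk. Tip cells secrete apelin and the proteoglycan endocan, and carry receptors of the netrin, Slit and semaphorin guidance systems that are shared with growing axons. Slit ligands signal through Robo receptors, semaphorins through plexins, and the chemokine CXCL12 through CXCR4.

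Total counts per library ran from 66320519 to 111512357. Levels are in CPM, a gene's counts per 1000000 of its library, scaled by the trimmed mean of M-values (TMM) over all libraries, with the SD over 3 libraries. PECAM1, an endothelial adhesion receptor, stood at 404 to 629.8 CPM in the 3 control libraries, and 19 of 22 endothelial marker genes reached 1 CPM in every group; CLDN5 was at 0 counts in the controls. In replicate 1 of the control, ECM and CM groups (5 libraries), COL1A1, the main collagen of stromal cells, lay at 1887 to 5262 CPM against 4.28 to 10.3 CPM in the 15 other libraries of those groups. TERT, which the MSC line carries for its immortalisation, lay there at 633 to 1274 CPM against 1.18 to 2.25 CPM, the unexposed control included. PECAM1 lay at 237 to 307 CPM against 404 to 734 CPM. Replicate 1 of young co-culture stood apart in its TMM factor, at 0.459 against 1.059 to 1.074 in its group. KRT18, an epithelial keratin, was at 6896 CPM there, against 791 to 1003 CPM in the other libraries of its group. With replicate 1 included, 0 of the 9 genes tested passed in edgeR in any of the 6 comparisons with control. Nothing in the labels says whether replicates came from separate cultures, so the p-values cover only differences between libraries, whose source may be technical; nor do they say whether MSCs were removed before RNA was taken from co-cultures.

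Across the 21 libraries the levels of the genes differed widely. Per kilobase of exon, the scale on which genes can be compared, ESM1 and APLN stood highest with means of 84.6 and 84.4 CPM per kb. ANGPTL4 followed at 51.8, ROBO4 at 22.3, PLXND1 at 16.7 and SLIT2 at 7.47 CPM per kb. INSR was at 1.36, CXCR4 at 0.503 and UNC5B at 0.294 CPM per kb. APLNR, the apelin receptor, had 3 counts in all 21 libraries together and at most 1 in any library. The limit that a count of 0 allows (3 counts) came to 0.0269 to 0.0452 CPM, for counting error only, so APLNR was not detectable above that level. It failed the filter on low counts in every fit, and the tests below cover the other 9 genes.

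**Figure D1:**
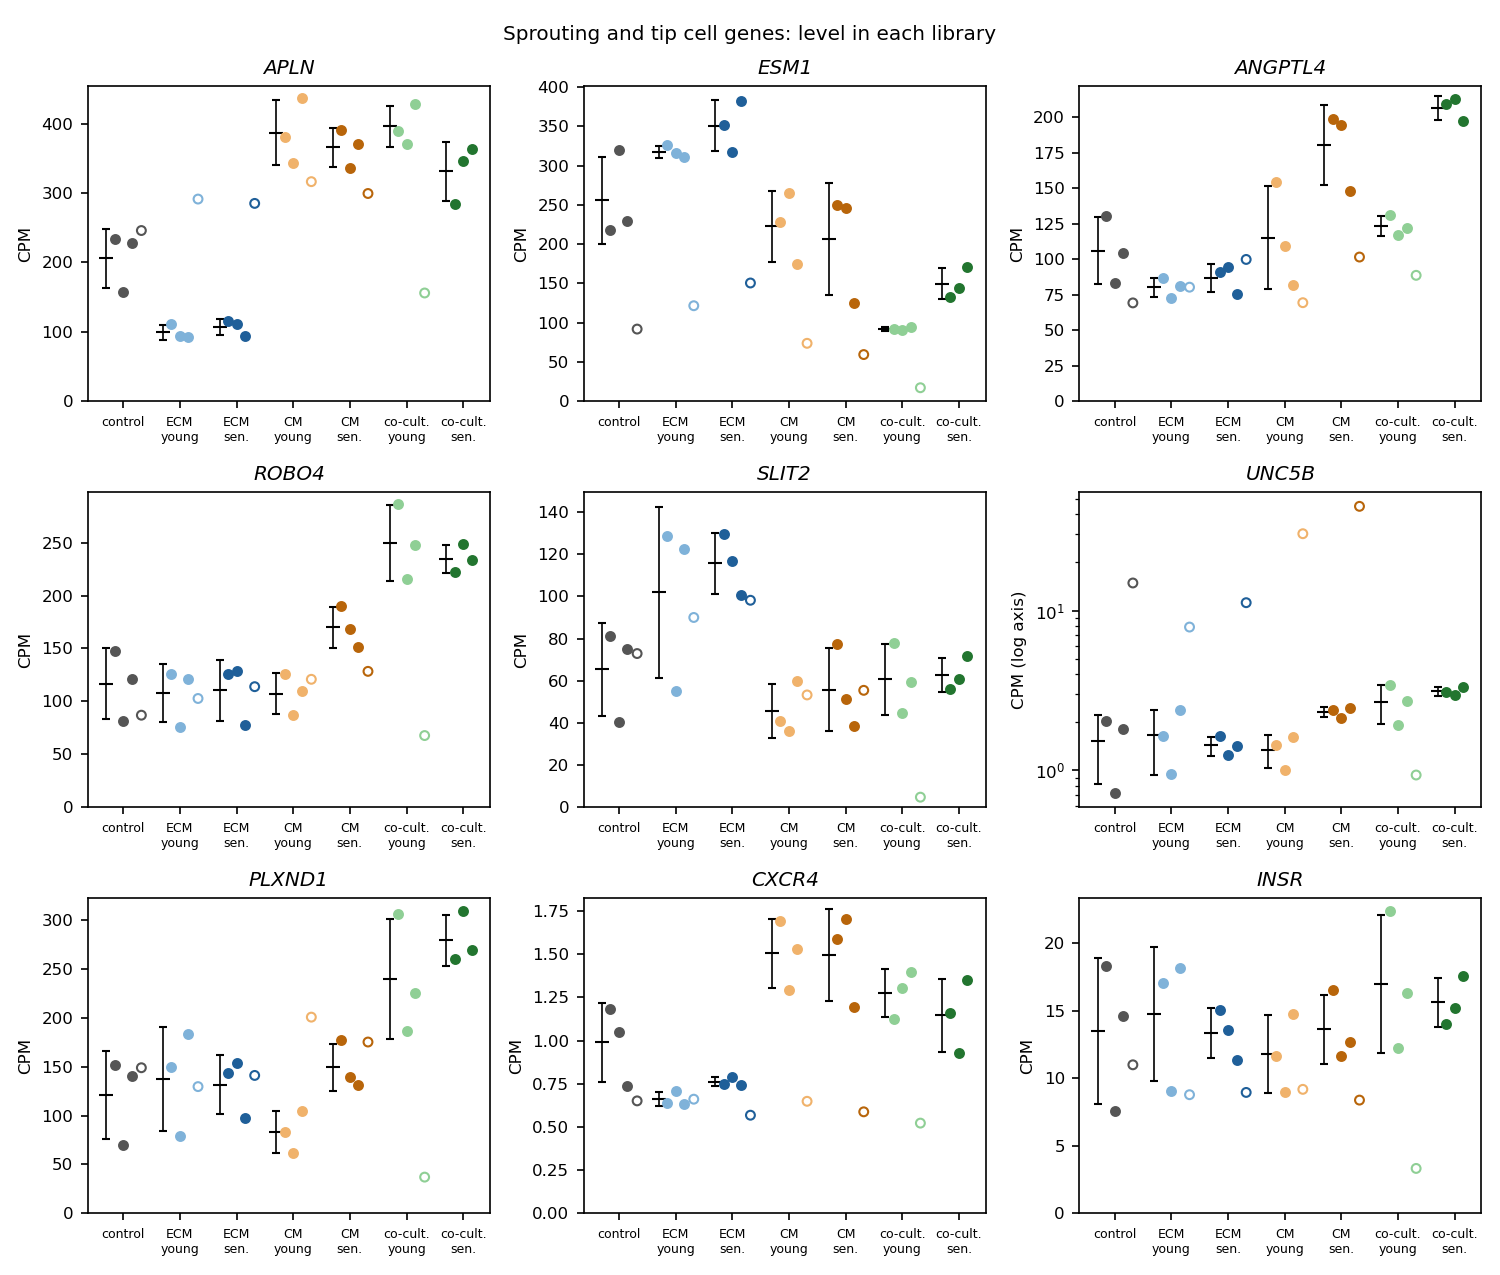
Level of 9 genes in CPM (TMM scaled) in each library, by group (young or senescent, "sen.", MSCs); filled points are replicates 2 to 4, open points replicate 1, and black bars the mean ± SD of replicates 2 to 4. UNC5B has a log axis. In replicates 2 to 4 APLN lies at 92.8 to 116 CPM in the 6 matrix libraries and at 284 to 437 CPM in the 12 CM and co-culture libraries, and UNC5B in replicate 1 of the control, ECM and CM groups lies at 7.88 to 44.9 CPM.

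By annotation (GENCODE 29, GRCh38; identifiers as deposited), ESM1 is ENSG00000164283.13 on chromosome 5 at 54977864 to 55022671, APLN is ENSG00000171388.12 on chromosome X at 129645259 to 129654937, and ANGPTL4 is ENSG00000167772.12 on chromosome 19 at 8363289 to 8374373. ROBO4 is ENSG00000154133.15 on chromosome 11 at 124883691 to 124898500, PLXND1 is ENSG00000004399.13 on chromosome 3 at 129555175 to 129606818, and SLIT2 is ENSG00000145147.20 on chromosome 4 at 20253260 to 20620561. UNC5B is ENSG00000107731.12 on chromosome 10 at 71212570 to 71302864, CXCR4 is ENSG00000121966.7 on chromosome 2 at 136114349 to 136118165, INSR is ENSG00000171105.14 on chromosome 19 at 7112255 to 7294034, and APLNR is ENSG00000134817.11 on chromosome 11 at 57233577 to 57237314. All are protein-coding, and counts cover each whole gene.

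Promoter sequence is shown for 3 of the genes whose levels moved most between groups: APLN, lower on matrix and higher in co-culture, ANGPTL4, higher in senescent co-culture, and PLXND1, higher in both co-cultures. RefSeq promoters (GRCh38.p14) were matched for 8 of the 10 genes, as the 250 bases before the start. These were 10 windows, with more than 1 for CXCR4. A gene counted where any of its windows held a motif, while the shares of all windows below are per window. The windows of ESM1, ROBO4 and ANGPTL4 and some of those of CXCR4 lie inside the gene bounds given above. Part of the PLXND1 window also does, outside the stretch printed. The stretches printed, 5′ to 3′ on the gene's strand and without bases that GENCODE 29 annotates as untranslated region, are chrX:129654957-129655206 (minus strand), chr19:8363905-8364150 (plus strand) and chr3:129606819-129606926 (minus strand). Capitals mark, on either strand, the hypoxia response core ACGTG, the ETS core GGAAG and the GC box GGGCGG.
APLN: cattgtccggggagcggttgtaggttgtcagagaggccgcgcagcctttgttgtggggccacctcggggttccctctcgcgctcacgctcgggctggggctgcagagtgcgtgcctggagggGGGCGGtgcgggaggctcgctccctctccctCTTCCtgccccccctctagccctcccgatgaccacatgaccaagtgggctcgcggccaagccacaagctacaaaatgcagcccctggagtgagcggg
ANGPTL4: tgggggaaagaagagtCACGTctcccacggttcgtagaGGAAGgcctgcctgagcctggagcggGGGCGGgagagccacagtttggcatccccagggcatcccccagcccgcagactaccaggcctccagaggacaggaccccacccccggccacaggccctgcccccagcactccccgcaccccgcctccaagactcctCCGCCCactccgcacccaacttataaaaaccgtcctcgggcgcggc
PLXND1: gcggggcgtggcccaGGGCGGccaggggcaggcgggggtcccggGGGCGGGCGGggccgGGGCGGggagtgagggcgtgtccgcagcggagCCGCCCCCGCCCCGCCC
ACGTG lay in the windows of 2 of the 8 genes, ANGPTL4 and ESM1, and in 18.5% of all 35116 windows. GGAAG lay in 6 of 8 (65.1% of all windows) and GGGCGG in 7 of 8, all but ESM1 (42.6%). The AP-1 motif TGANTCA lay in 0 of 8 (6.57%) and the RBPJ motif TGGGAA, which can share its last 4 bases with GGAAG, in 1 of 8, CXCR4 (20.8%). The PLXND1 window was 88.8% G and C, that of ESM1 47.6%, and the median of all windows 58.0%. These matches describe the letters only.

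Against control, APLN was 2.08-fold and 1.93-fold lower on young and senescent ECM and 1.93-fold higher in young co-culture. ESM1 was 2.75-fold lower in young co-culture, where ROBO4 was 2.15-fold and PLXND1 1.99-fold higher, and ANGPTL4 was 1.96-fold higher in senescent co-culture. Genes were tested with edgeR's quasi-likelihood F-test, with p-values adjusted by Benjamini-Hochberg over all genes tested and a threshold of 0.05, and adjusted p-values are from edgeR where no tool is given. Log2 fold changes are given with their standard errors. Against control, 1 of the 9 genes passed on young ECM, APLN, which was lower, where 0.649% of all genes passed and 0.189% as lower. APLN was also the 1 gene to pass on senescent ECM, where 0.3% of all genes passed and 0.0777% as lower. In young CM 0 of 9 passed and 2 had an unadjusted p under 0.05, and the share of all genes was 0%, while DESeq2 called 1 of the 9, APLN, and 0.183% of all genes. In senescent CM APLN passed as higher (0.505% of all genes, 0.305% as higher). In young co-culture 3 genes were higher and 1 lower, where 9.68% of all genes passed, 6.71% as higher and 2.97% as lower. In senescent co-culture 4 were higher and 1 lower, where 8.05% passed, 5.82% as higher and 2.23% as lower. The median log2 fold change of the 9 genes was 0.37 in young and 0.69 in senescent co-culture, against 0.01 and 0.02 for all genes tested. These 6 comparisons share the control libraries, which ties their values together.

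**Figure D2:**
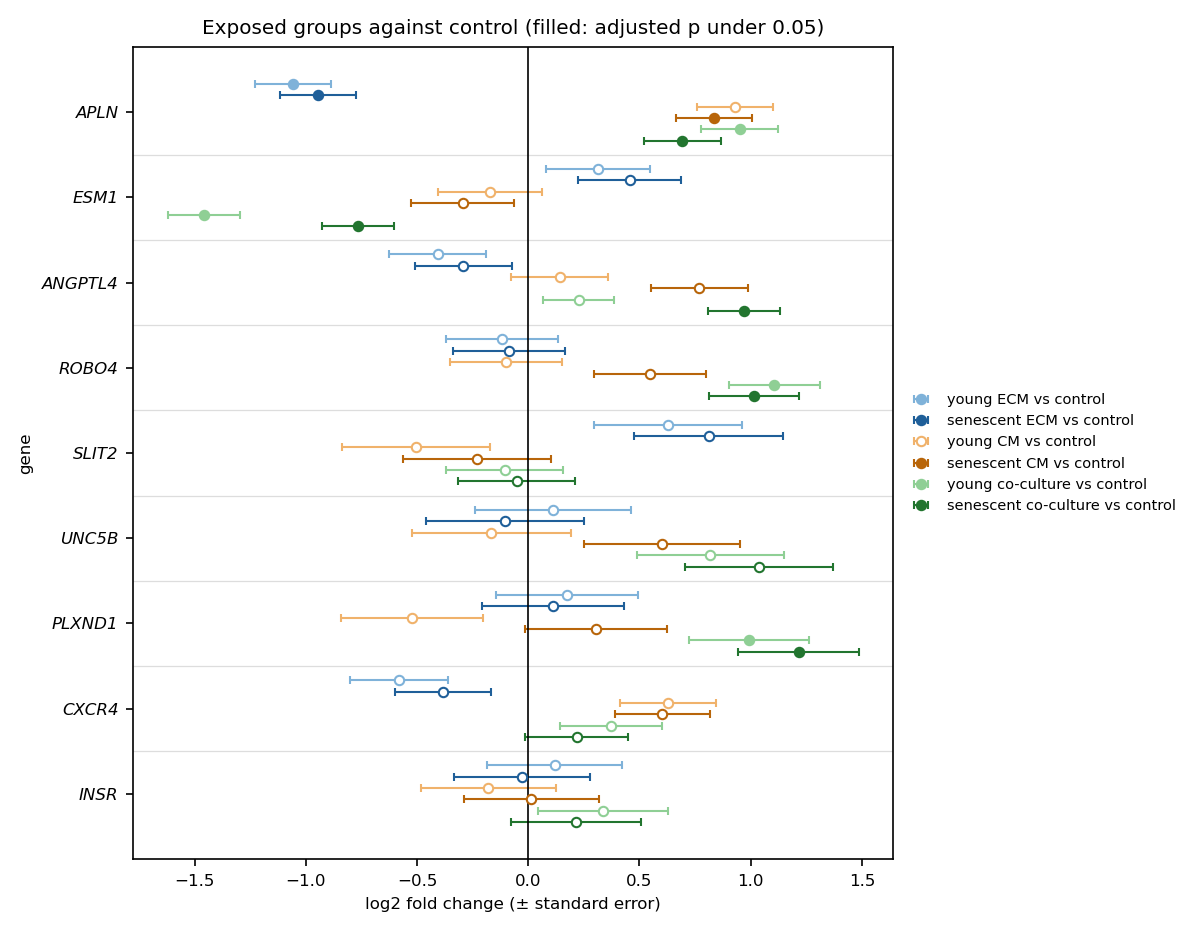
Log2 fold change against control with its standard error for 9 genes and 6 exposed groups; filled points passed the edgeR test (adjusted p under 0.05). APLN lies below 0 on both matrices and above 0 in both media and both co-cultures, and ESM1 lies lowest in young co-culture, at −1.46.

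APLN encodes apelin, the secreted ligand of the apelin receptor. Its lowest levels were on matrix and its highest in conditioned medium and co-culture. Control libraries 2, 3 and 4 stood at 233, 157 and 227 CPM. On young ECM they stood at 111, 94.0 and 92.8 CPM, and on senescent ECM at 116, 111 and 94.7 CPM. All 6 matrix libraries lay below all 3 controls. In young CM the libraries read 381, 344 and 437 CPM, and in senescent CM 392, 336 and 371 CPM. In young co-culture they read 389, 371 and 428 CPM, and in senescent co-culture 284, 346 and 364 CPM. These 12 libraries all lay above the controls. Each of the 4 groups overlapped the next when ordered by mean, while all 3 young co-culture libraries lay above the 3 senescent ones. Replicate 1 read 246 CPM in control, 291 and 285 CPM on young and senescent ECM and 156 CPM in young co-culture. There the matrix libraries lay above control and the co-culture library below it. In young and senescent CM replicate 1 read 316 and 299 CPM, above control.

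APLN fell by 1.06 ± 0.17 on the log2 scale on young ECM (adjusted p = 0.00886), which is 2.08-fold lower than control. On senescent ECM it fell by 0.95 ± 0.17 (adjusted p = 0.0321). In senescent CM it rose by 0.83 ± 0.17 (adjusted p = 0.0389). In young CM the difference was 0.93 ± 0.17 but missed the threshold (adjusted p = 0.185). Same-numbered libraries of control and young CM deviated together, and with the replicate number as a block the difference passed (0.94 ± 0.15, adjusted p = 0.0416), as did 0.0333% of all genes. In young co-culture APLN rose by 0.95 ± 0.17 (adjusted p = 0.00547) and in senescent co-culture by 0.69 ± 0.17 (adjusted p = 0.0291). Leaving out 1 library at a time kept every direction. On young ECM APLN missed the threshold without control 4 or without ECM library 4 (highest adjusted p = 0.0745). On senescent ECM APLN passed in 1 of 6 such fits, without control 3, and adjusted p ran from 0.00648 to 0.216. In senescent CM it passed in 1 of 6, without control 2, with adjusted p from 0.0452 to 0.170, and scaling to endothelial marker genes in place of TMM gave 0.59 ± 0.17 (adjusted p = 0.153). In senescent co-culture it missed in 3 of 6, without control 4 or co-culture library 3 or 4 (highest adjusted p = 0.129).

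ESM1 encodes endocan, a proteoglycan secreted by activated endothelium and tip cells. Its group means ran against those of APLN: highest on matrix and lowest in co-culture. The controls stood at 218, 319 and 230.1 CPM. On young ECM the libraries stood at 326, 315 and 311 CPM and on senescent ECM at 351, 318 and 383 CPM, overlapping the controls. Conditioned medium gave 228, 265 and 175 CPM with young and 250.2, 246 and 125 CPM with senescent MSCs. In young co-culture all 3 libraries were low and close together, at 92.0, 90.3 and 95.03 CPM, below every other library of replicates 2 to 4. Senescent co-culture lay between, at 133, 144 and 171 CPM.

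Against control, ESM1 fell by 1.46 ± 0.16 on the log2 scale in young co-culture (adjusted p = 0.000259), or 2.75-fold. In senescent co-culture it fell by 0.76 ± 0.16 (adjusted p = 0.0120), and this call was lost without co-culture library 2 or 3 (highest adjusted p = 0.0681). The level with senescent MSCs, 149 ± 20 CPM (SD, n = 3), was above the 92.4 ± 2.4 CPM with young MSCs in all 3 libraries. That difference, 0.69 ± 0.16 on the log2 scale, missed the threshold in edgeR (adjusted p = 0.151) and passed in DESeq2 (adjusted p = 0.0133). ESM1 was not past the threshold against control on either matrix or in either medium. Its exons overlap those of AC034238.1 on the same strand over 44 bases, a gene with 0 to 5 counts per library.

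The ratio of APLN to ESM1, taken per kilobase within each library, does not depend on scaling between libraries. It ran from 0.414 to 0.900 in the controls and from 0.208 to 0.295 in the 6 matrix libraries. In CM it ran from 1.09 to 2.50, in young co-culture from 3.46 to 3.79 and in senescent co-culture from 1.79 to 2.01. Neither the matrix nor the CM libraries overlapped the controls, and young co-culture lay above every other library of replicates 2 to 4. In replicate 1 the ratio was 2.25 in control, 2.01 and 1.59 on young and senescent ECM, 3.60 and 4.23 in CM and 7.59 in young co-culture, each above its group's other libraries. Among the 36 pairs of the 9 genes, APLN and ESM1 had the least similar pattern over the 7 group means, with a root mean square difference of 1.34 in centred log2 level.

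**Figure D3:**
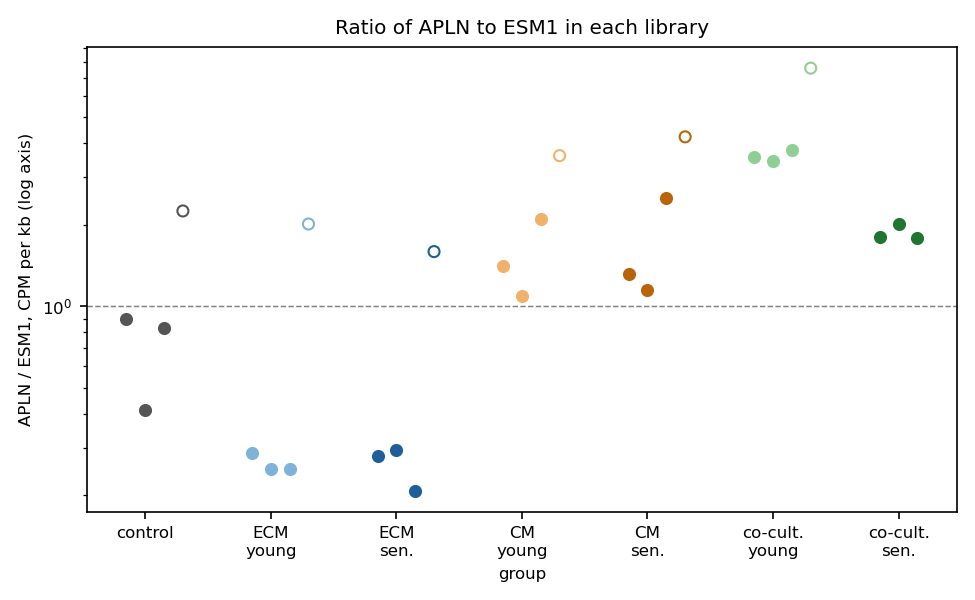
APLN to ESM1 ratio in CPM per kb in each library, on a log axis, by group; filled points are replicates 2 to 4 and open points replicate 1, and the dashed line marks equal levels. The 6 matrix libraries of replicates 2 to 4 lie at 0.208 to 0.295, below the controls, and the co-culture libraries at 1.79 to 3.79.

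ANGPTL4 encodes a secreted inhibitor of lipoprotein lipase that responds to hypoxia and to PPAR receptors. It was highest in the senescent groups of CM and co-culture. The controls stood at 131, 83.6 and 104 CPM. Young CM gave 155, 109 and 82.3 CPM and young co-culture 131, 117 and 122 CPM, both overlapping the controls. Senescent CM gave 199, 194 and 148 CPM and senescent co-culture 210, 213 and 197 CPM. The 6 libraries of these 2 senescent groups lay above all controls. On young ECM the libraries ran from 73.0 to 86.6 CPM and on senescent ECM from 75.8 to 94.5 CPM.

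ANGPTL4 rose in senescent co-culture by 0.97 ± 0.16 on the log2 scale against control (adjusted p = 0.00322). Every fit that left out 1 library kept this call, with adjusted p up to 0.0256. In senescent CM the difference of 0.77 ± 0.22 missed the threshold (adjusted p = 0.191). Between senescent and young co-culture, 207 ± 8.2 against 124 ± 7.2 CPM (SD, n = 3 each), the difference of 0.74 ± 0.16 had an adjusted p of 0.109 in edgeR and of 0.00641 in DESeq2. Between senescent and young CM the difference was 0.63 ± 0.22 (adjusted p = 0.765), and the libraries overlapped.

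The guidance genes differed in direction. SLIT2, a secreted Slit ligand, was highest on matrix, ROBO4, the endothelial Robo receptor, and PLXND1, the plexin that binds semaphorin 3E, were highest in co-culture, and UNC5B, a netrin receptor of tip cells, was under 4 CPM in all 21 libraries. SLIT2 stood at 81.3, 40.2 and 74.8 CPM in the controls. On young ECM it read 128, 54.996 and 122 CPM and on senescent ECM 130, 117 and 101 CPM, of which senescent ECM alone did not overlap the controls. In CM it ran from 36.2 to 77.3 CPM and in co-culture from 44.6 to 78.0 CPM, overlapping the controls in all 4 groups. Replicate 1 of SLIT2 read 4.81 CPM in young co-culture against 72.9 CPM in control. The difference on senescent ECM, 0.81 ± 0.33 on the log2 scale, missed the threshold (adjusted p = 0.610), as did that on young ECM (0.63 ± 0.33, adjusted p = 0.691).

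ROBO4 stood at 148, 81.0 and 121 CPM in the controls, and on matrix and in young CM it overlapped them, at 76.1 to 129 CPM. In senescent CM it read 190, 169 and 151 CPM, above the controls in all 3 libraries, a difference of 0.55 ± 0.25 that missed the threshold (adjusted p = 0.769). Young co-culture gave 287, 215 and 248 CPM and senescent co-culture 222, 248 and 233 CPM. All 6 lay above every other library of replicates 2 to 4. ROBO4 rose by 1.11 ± 0.20 in young co-culture (adjusted p = 0.00566) and by 1.02 ± 0.20 in senescent co-culture (adjusted p = 0.00902), and every fit without 1 library kept both calls. In replicate 1 ROBO4 went the other way, at 67.8 CPM in young co-culture against 87.0 CPM in control. Its exons overlap 2 antisense genes, AP003501.1 over 744 bases and AP003501.2 over 448 bases. These had 0 to 12 and 0 to 13 counts per library, and the strand setting of the counting is not given in the sources used here.

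PLXND1 stood at 152, 69.8 and 141 CPM in the controls. On matrix it ran from 79.2 to 184 CPM. Young CM gave 83.3, 61.4 and 105 CPM, and senescent CM 177, 140 and 132 CPM, which did not overlap young CM (0.83 ± 0.32, unadjusted p = 0.0204, adjusted p = 0.765). Young co-culture gave 307, 186 and 226 CPM and senescent co-culture 260.1, 309 and 269 CPM, above all other libraries of replicates 2 to 4. PLXND1 rose by 0.99 ± 0.27 in young co-culture (adjusted p = 0.0401), but missed the threshold without young co-culture library 2 or 4 or without control 4 (highest adjusted p = 0.167). In senescent co-culture it rose by 1.22 ± 0.27 (adjusted p = 0.0161), a call lost without senescent co-culture library 3 (adjusted p = 0.0764). In replicate 1 PLXND1 went the other way, at 37.0 CPM in young co-culture against 149 CPM in control. Replicate 1 of young and senescent CM read 201 and 175 CPM, also the reverse of the order above.

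UNC5B rested on 70 to 340 counts per library. Its means were 1.53 ± 0.71 CPM in control, 1.66 ± 0.72 and 1.43 ± 0.20 on young and senescent ECM, and 1.35 ± 0.31 and 2.32 ± 0.17 in young and senescent CM (SD, n = 3 each). In co-culture it was 2.69 ± 0.74 with young and 3.13 ± 0.20 CPM with senescent MSCs. Against control the difference was 0.82 ± 0.33 in young co-culture (adjusted p = 0.154) and 1.04 ± 0.33 in senescent co-culture (adjusted p = 0.0855). Same-numbered libraries of control and young co-culture deviated together, though control 4 correlated at 0.206 with co-culture library 4 and at 0.231 with library 2. With the replicate number as a block the young co-culture difference passed (0.87 ± 0.25, adjusted p = 0.0416), as did 11.6% of all genes. DESeq2 called the senescent co-culture difference (adjusted p = 0.0233), with 11% of all genes. In replicate 1 UNC5B was at 14.9 CPM in control, 7.88 and 11.2 on young and senescent ECM, and 30.3 and 44.9 in young and senescent CM. These 5 libraries, which also hold the high COL1A1, did not overlap the 15 others (0.721 to 2.45 CPM). UNC5B in young co-culture replicate 1 was 0.934 CPM. The part of stromal RNA in these UNC5B levels was not tested. With replicate 1 included the direction of UNC5B in co-culture turned against control, to −1.18 ± 0.80 with young and −0.70 ± 0.87 with senescent MSCs. No senescent co-culture library was added there, since that group has no replicate 1, while the control gained its replicate 1 at 14.9 CPM.

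CXCR4, the receptor of the chemokine CXCL12, stood at 58 to 167 counts per library. Its levels were 1.18, 1.05 and 0.734 CPM in the controls, 0.641, 0.7103 and 0.635 CPM on young ECM and 0.749, 0.790 and 0.741 CPM on senescent ECM. The young ECM libraries lay below the controls, but the difference missed the threshold (−0.58 ± 0.22, adjusted p = 0.395). Young CM ran from 1.30 to 1.69 CPM, above all controls (0.63 ± 0.21, adjusted p = 0.860), and senescent CM from 1.19 to 1.70 CPM (0.60 ± 0.21, adjusted p = 0.421). Co-culture ran from 0.927 to 1.39 CPM and overlapped the controls. Replicate 1 of the control, ECM and CM groups ran from 0.568 to 0.660 CPM, and that of young co-culture read 0.522 CPM.

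INSR, the insulin receptor, showed no difference past the threshold in any of the 15 comparisons, and each of its 7 groups overlapped the next when ordered by mean. Its group means ran from 11.8 CPM in young CM to 17.0 CPM in young co-culture, a ratio of 1.44, the smallest among the 9 genes. Single libraries ran from 7.60 to 22.4 CPM.

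Senescent and young MSCs were compared within each way of exposure. On matrix, 0 of the 9 genes passed, with 0 at an unadjusted p under 0.05 and 0 called by DESeq2, where 0% of all genes passed in either tool. In CM 0 of 9 passed in edgeR and 0 in DESeq2, against 0.0167% and 0.272% of all genes. There 4 had an unadjusted p under 0.05, all higher with senescent MSCs: ANGPTL4, PLXND1, ROBO4 and UNC5B, with log2 differences from 0.63 to 0.83 and adjusted p of 0.765. In co-culture 0 of 9 passed in edgeR (0.395% of all genes), 2 had an unadjusted p under 0.05 and DESeq2 called these 2, ANGPTL4 and ESM1, as higher with senescent MSCs, and 0.909% of all genes. Beside them, 7 of 20 stromal genes passed in edgeR as higher with senescent MSCs in co-culture, COL1A1 among them, and 0 of 19 endothelial genes passed. TERT, which the MSC line carries for its immortalisation, went the other way without passing, at 6.77 ± 1.1 CPM with young and 3.78 ± 0.75 CPM with senescent MSCs (SD, n = 3 each; log2 difference −0.84). Their part in these differences was not tested. The difference of the senescence effects was also tested. Between CM and ECM 0 of 9 passed (0% of all genes; 0 had an unadjusted p under 0.05), between co-culture and CM 0 (0.103%; 2, ESM1 and ROBO4) and between co-culture and ECM 0 (0.0487%; 1, ANGPTL4), and DESeq2 called 0 of the 9 in these 3 comparisons, against 0.0167%, 0.368% and 0.146% of all genes. ESM1 and ROBO4 had opposite signs in the second: with senescent MSCs ESM1 was 0.80 ± 0.30 higher in co-culture than in CM relative to young, and ROBO4 0.75 ± 0.33 lower (adjusted p = 0.690 and 0.892).

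**Figure D4:**
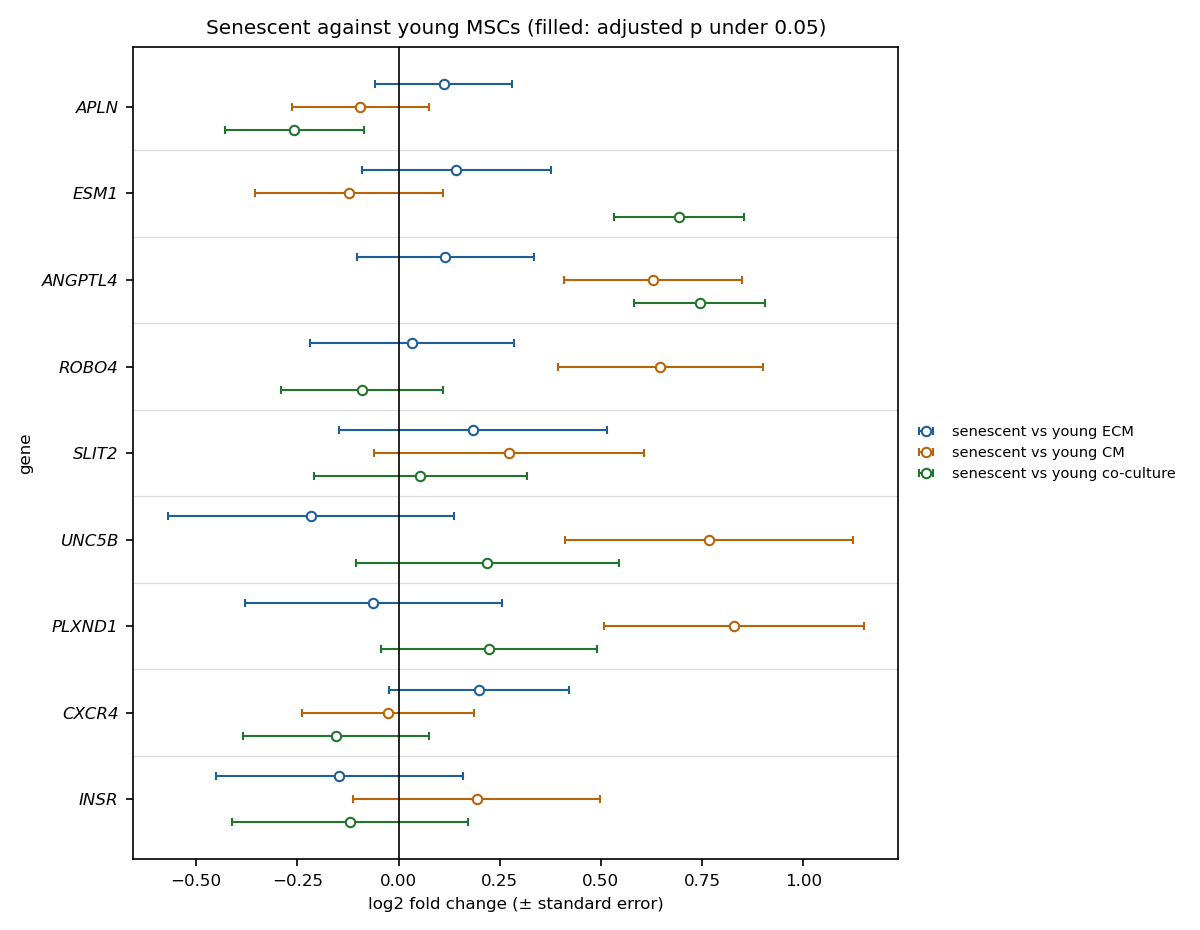
Log2 fold change of senescent against young MSCs with its standard error for 9 genes in ECM, CM and co-culture; no point is filled, since none passed the edgeR test. The matrix values lie within −0.22 and 0.20, and the highest values are PLXND1 in CM at 0.83, UNC5B in CM at 0.77 and ANGPTL4 in co-culture at 0.74.

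The ways of exposure were compared over young and senescent groups together, 6 libraries against 6. Between ECM and CM 5 of the 9 genes passed (11.8% of all genes, 6.79% as higher and 5.02% as lower), 2 higher and 3 lower on ECM. APLN was lower by 3.69-fold (−1.88 ± 0.12, adjusted p = 1.83e-07), CXCR4 by 2.14-fold (−1.10 ± 0.15, adjusted p = 0.000211) and ANGPTL4 by 1.75-fold (−0.81 ± 0.16, adjusted p = 0.00272). SLIT2 was higher on ECM by 2.12-fold (1.09 ± 0.24, adjusted p = 0.00657) and ESM1 by 1.53-fold (0.62 ± 0.17, adjusted p = 0.0222). The ESM1 call was lost without senescent ECM library 4 (adjusted p = 0.0538). The other 4 calls held in all 12 fits that left out 1 library, none of which held replicate 1. In replicate 1 young and senescent ECM read 0.660 and 0.568 CPM for CXCR4, and young and senescent CM 0.648 and 0.587 CPM. In the same order ANGPTL4 read 80.4 and 100.0 against 69.5 and 101.6 CPM, also overlapping. APLN was lower on ECM there, at 291 and 285 against 316 and 299 CPM. SLIT2 was higher, at 90.0 and 98.1 against 53.3 and 55.4 CPM. Scaled to the endothelial genes, which moved the median of all genes by −0.21, ESM1 also missed the threshold (0.45 ± 0.18, adjusted p = 0.110) and ROBO4 passed as lower on ECM (−0.53 ± 0.14, adjusted p = 0.0167). That scaling called 14.5% of all genes, and ROBO4 was at −0.32 relative to their median.

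Between co-culture and CM 3 passed (17% of all genes, 9.09% as higher and 7.92% as lower): PLXND1 was higher in co-culture by 1.18 ± 0.22 and ROBO4 by 0.80 ± 0.17, and ESM1 was lower by 0.91 ± 0.15 (adjusted p = 0.00102, 0.00277 and 0.000399). UNC5B missed the threshold in edgeR (0.68 ± 0.23, adjusted p = 0.0510) and passed in DESeq2 (adjusted p = 0.0209), which called 20.9% of all genes. Between co-culture and ECM 8 passed (26.9% of all genes, 13.8% as higher and 13.1% as lower), 6 higher and 2 lower, and INSR did not. APLN was 3.44-fold higher in co-culture (1.78 ± 0.12), ROBO4 2.18-fold, PLXND1 1.89-fold, ANGPTL4 1.88-fold, UNC5B 1.84-fold and CXCR4 1.67-fold. ESM1 was 2.89-fold lower (−1.53 ± 0.15) and SLIT2 1.79-fold lower. Adjusted p ran from 9.53e-10 for APLN to 0.00853 for SLIT2. Scaled to the endothelial genes, which moved the median of all genes by −0.42 between co-culture and CM, APLN, ANGPTL4 and CXCR4 also passed as lower there (−0.52 ± 0.11, −0.29 ± 0.10 and −0.76 ± 0.15; adjusted p = 0.000826, 0.0247 and 0.000609). Under that scaling 51.2% of all genes passed. Relative to the median of all genes, APLN was at −0.09, ANGPTL4 at 0.14 and CXCR4 at −0.33.

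The co-culture libraries can hold RNA of both cell types, and in such libraries fewer cells of a type and less RNA per cell cannot be told apart. Of 20 stromal genes, 13 rose and 1 fell in young co-culture and 15 rose and 1 fell in senescent co-culture. Over all genes 9.68% passed with young and 8.05% with senescent MSCs, also the background of the endothelial counts below. COL1A1 was 60.1 ± 12 CPM with young and 140.1 ± 26 CPM with senescent MSCs, against 5.83 ± 0.34 CPM in control, and TERT, at 1.65 ± 0.19 CPM in control, rose in both co-cultures. The 20 stromal genes took 0.0762 to 0.0915% and 0.0922 to 0.102% of counts, against 0.0512 to 0.0611% in control. Of 19 endothelial genes tested, 13 rose and 0 fell with young and 11 rose and 1 fell with senescent MSCs. The 22 endothelial genes took 0.776 to 0.875% with young and 0.867 to 0.899% with senescent MSCs, against 0.505 to 0.598% in control, and PECAM1 went from 500 ± 117 to 1243 ± 37 and 1244 ± 93 CPM (SD, n = 3 each). The part of either cell type's share in the co-culture values was not tested. Scaling to the endothelial genes in place of TMM lowered the median of all genes against control by 0.55 and 0.62 on the log2 scale in young and senescent co-culture. ESM1 was then still lower in both (−2.04 ± 0.20 and −1.43 ± 0.20; adjusted p = 0.000137 and 0.000622). PLXND1 in young co-culture, and APLN and ROBO4 in senescent co-culture, no longer passed (adjusted p = 0.107, 0.689 and 0.0508). SLIT2 passed as lower in both, at −0.65 ± 0.22 and −0.66 ± 0.22 (adjusted p = 0.0295 and 0.0227). Under this scaling 49.8% of all genes passed with young and 60% with senescent MSCs. SLIT2 lay at −0.10 and −0.04 relative to the median of all genes. Relative to that median the values were close to those under TMM, for example 0.95 for APLN and 1.00 for PLXND1 in young co-culture. A change of scaling shifts all genes by about the same amount, so this closeness was fixed in advance and cannot decide between the scalings. Of 10 epithelial genes, a check on the A549 parent, the summed share of counts was 0.120 to 0.136% in the 6 matrix libraries, 0.222 to 0.270% in control, 0.360 to 0.564% in CM and 0.352 to 0.489% in co-culture. The list did not move as one: of 9 tested between ECM and CM, KRT7, KRT8 and KRT18 were lower on ECM and AKR1B10 and AKR1C1 higher, with a median log2 fold change of 0.16. In both co-cultures KRT7 and KRT8 were higher and AKR1C1 lower than control, with medians of 0.02 with young and −0.18 with senescent MSCs. Their part in the APLN values was not tested.

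Other genes of the same pathways, in 7 lists, were read beside the 10. Of 40 tip cell, VEGF and Notch genes, 35 were tested in the co-culture fit, and 17 were higher and 2 lower in young co-culture than in control, where 6.71% of all genes passed as higher and 2.97% as lower. The list's median log2 fold change was 0.69 against 0.01 for all genes. HES1, a Notch target, rose from 4.90 ± 0.86 to 67.3 ± 17 CPM (3.79 ± 0.24, adjusted p = 9.41e-06). PDGFB, the growth factor of tip cells that recruits pericytes, rose by 2.23 ± 0.25, NID1, a basement membrane protein, by 1.56 ± 0.33, and KDR, the main VEGF receptor, by 1.51 ± 0.20. The 2 lower genes were PLAUR and VEGFC. In senescent co-culture 17 were higher and 0 lower (5.82% and 2.23% of all genes; median 0.70), led by HES1 (3.62 ± 0.24), and LFNG, which modifies Notch, rose by 1.40 ± 0.19. Between senescent and young co-culture 1 of 35 passed, NID2, as higher (0.395% of all genes). On matrix 1 of 36 passed against control, FLT1, the decoy VEGF receptor, higher by 0.85 ± 0.16 on young and 0.81 ± 0.16 on senescent ECM (adjusted p = 0.0252 and 0.0491). Of all genes 0.649% passed on young and 0.3% on senescent ECM. In senescent CM 1 of 36 passed, HES1, higher by 1.79 ± 0.31 (adjusted p = 0.0152), and in young CM 0 of 36 (edgeR). Over all genes the shares were 0.505% in senescent and 0% in young CM.

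Among 27 semaphorin and plexin genes, 23 tested in co-culture, 3 were higher and 1 lower with young MSCs, and 3 higher and 2 lower with senescent MSCs. Over all genes 9.68% and 8.05% passed in these comparisons, which is also the background of the counts for the smaller lists. The lower genes were SEMA7A with young and SEMA3A and SEMA3D with senescent MSCs. SEMA3F rose by 1.12 ± 0.20 and 1.59 ± 0.20, PLXNB1 by 1.00 ± 0.23 and 0.84 ± 0.23, and SEMA6B by 0.86 ± 0.24 and 1.08 ± 0.24. SEMA3D fell with senescent MSCs by 1.00 ± 0.21. Of 12 Slit and Robo genes, 10 tested, SLIT3 was higher in both co-cultures and SLIT1 lower in the senescent one. SLIT3 also passed as higher with senescent than with young MSCs in co-culture. Of 15 netrin, UNC5 and FLRT genes, 3 were tested, and FLRT2, a ligand of UNC5 receptors, rose by 0.92 ± 0.17 and 0.83 ± 0.17. Of 11 tested genes around apelin and CXCL12, 3 were higher in each co-culture, ARRB1, GRK5 and CXCL12, and RGS4 fell in the young one by 0.75 ± 0.16. Of 16 tested insulin and IGF genes 0 passed in young co-culture (edgeR), and in senescent co-culture SOCS3 and GRB10, both inhibitors of the signal, rose by 0.97 ± 0.22 and 0.58 ± 0.15. Of 12 tested angiopoietin-like and PPAR genes, ANGPTL2 rose by 1.09 ± 0.15 and 0.99 ± 0.15, and ANGPTL1 and PLIN2 were also higher in senescent co-culture. SLIT3, SLIT1, CXCL12, SEMA7A, SEMA3A, ANGPTL1, PLAUR, VEGFC, NID2 and PLIN2 fall outside the rule for named genes and were chosen after their values were seen. The part of MSC RNA in the co-culture values of all these lists was not tested.

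The 9 genes also differed in how far replicates spread, along with exon length. UNC5B, ROBO4, SLIT2, PLXND1 and INSR have 6841 to 10451 bases of exon, and ESM1, APLN, ANGPTL4 and CXCR4 have 2224 to 3205. In young ECM the coefficient of variation over replicates 2 to 4 ran from 25.6 to 43.6% for the 5 longer genes and from 2.39 to 10.5% for the 4 shorter ones. In control it ran from 28.7 to 46.3% against 20.6 to 23.3%, in young co-culture from 14.3 to 30.0% against 2.61 to 10.9%, and on senescent ECM from 12.5 to 26.0% against 3.42 to 11.4%. In the other 3 groups the ranges of longer and shorter genes overlapped. Library 3 was the lowest of its group for all 5 longer genes in control, young ECM, young CM and young co-culture. In young ECM library 3, the median of all 3346 protein-coding genes with at least 6841 bases of exon lay 0.28 below the mean of its group on the log2 scale, and that of 2083 genes with at most 3205 bases 0.27 above it. In control library 3 these medians were −0.04 and 0.11, in young co-culture library 3 −0.13 and 0.14, and in young CM library 3 −0.11 and 0.05. In young CM library 2 they were −0.10 and 0.15. The median deviation of the 5 longer genes was 0.03 in that library, against −0.30 in young CM library 3. The part of exon length in these values was not tested.

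**Figure D5:**
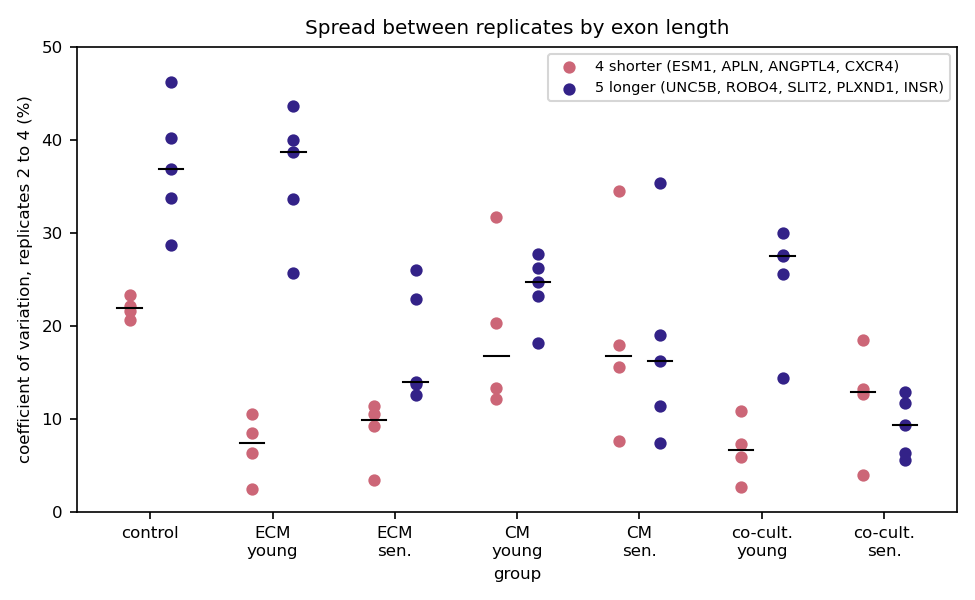
Coefficient of variation in percent over replicates 2 to 4 of each group, for the 4 genes with shorter exons (ESM1, APLN, ANGPTL4, CXCR4) and the 5 with longer exons (UNC5B, ROBO4, SLIT2, PLXND1, INSR); black lines mark medians. In control, both ECM groups and young co-culture every longer gene lies above every shorter one.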

How the data were processed

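The 27 RNA-seq libraries were built from poly(A) RNA by a kit that keeps strand, per the labels. Alignment used HISAT2 2.2.1 and counting featureCounts 2.0.1 on GRCh38/hg38, per the submitters' processing notes. Strand setting and annotation release: not given in the sources used here. The values are raw counts by gene as the authors deposited them, with 60648 entries, of which 44 pseudoautosomal Y copies were left out. No column belonged to another sample. The extraction protocol speaks of RNA from MSCs, but samples are labelled as endothelial cells, which was followed.

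Groups and replicate numbers came from the labels. Tests used edgeR 4.0.16 (glmQLFit and glmQLFTest, 2-sided) on genes kept by filterByExpr (minimum count 10), scaled by TMM: control, ECM and CM together (15 libraries, 18015 genes), control and co-culture together (9 libraries, 17729 genes), and all 7 groups (21 libraries, 18492 genes) for co-culture against other modes. The script was tested on simulated counts. Same-numbered libraries paired (every correlation of deviations above 0.1) in young ECM (0.464 to 0.669), young CM (0.445 to 0.674) and young co-culture (0.206 to 0.705) against control, from the data and not the labels, and not in the other comparisons checked. For control 4 the young co-culture library of the same number was not the one with the highest correlation. Libraries of a group all differed beyond counting noise (lowest chi-square per degree of freedom 21.9).

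Alternatives were DESeq2 1.42.0, its RLE size factors, scaling to endothelial genes, no filter, all replicates, a replicate block, 1 fit over all groups and leaving out each library. Of genes beside the 10, at most 4 per list and comparison are given with values, those past the threshold with at least 5 CPM in a group. The 10 genes and all lists were chosen with earlier results of these data known.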

Additional observations from a re-analysis of the deposited data

Results flagged for a closer look

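A library was set apart where its gap to the nearest of the 4 libraries of its group took more of the group's range than Dixon's critical value at 95% allows. With 54 such groups examined, chance flags about 1 in 20, and 9 libraries were found, 8 of them replicate 1. UNC5B was high in replicate 1 of control (14.9 CPM), senescent ECM (11.2 CPM), young CM (30.3 CPM) and senescent CM (44.9 CPM). APLN was high in replicate 1 of young ECM (291 CPM) and senescent ECM (285 CPM). ESM1 was low in replicate 1 of young ECM (122 CPM) and of young co-culture (17.3 CPM). PLXND1 was low in control library 3 (69.8 CPM).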

How the results depend on the processing

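Including replicate 1, which senescent co-culture lacks, changed the results most. The genes passing fell from 5 to 3 for ECM against CM, from 3 to 0 for co-culture against CM and from 8 to 4 for co-culture against ECM, and became 0 for each of young and senescent ECM, senescent CM and young and senescent co-culture against control. Of all genes, 3.7%, 1.66% and 9.47% passed between these modes, and at most 0.251% against control, with replicate 1 included. The common coefficient of variation rose with it, from 0.216 to 0.527 in the control, ECM and CM fit. UNC5B reversed to −1.18 and −0.70 in young and senescent co-culture against control, to −1.99 for co-culture against CM and to −0.41 for co-culture against ECM, and the PLXND1 difference of senescence effects between co-culture and CM reversed to 0.10. Scaling to endothelial genes gave 3 lower genes on young ECM, 0 in senescent CM and 6 for co-culture against CM. It moved the median of all genes against control by −0.36 and −0.33 on young and senescent ECM. There the endothelial genes took 0.611 to 0.762% and 0.621 to 0.752% of counts, against 0.505 to 0.598% in control. PECAM1 was at 509 and 473 CPM against 500 CPM in control, and CDH5 at 223 and 243 against 250 CPM. The summed share thus rose without these genes. The count of all genes called in young co-culture then went from 1190 higher and 526 lower to 526 and 8301, in senescent co-culture from 1032 and 396 to 518 and 10122, for ECM against CM from 1223 and 904 to 641 and 1969, for co-culture against CM from 1680 and 1465 to 579 and 8889, for co-culture against ECM from 2545 and 2430 to 1404 and 4882, on young ECM from 83 and 34 to 42 and 326, on senescent ECM from 40 and 14 to 10 and 50, and in senescent CM from 55 and 36 to 20 and 87. Without a filter on low counts, 2 genes passed on senescent ECM, 2 in senescent CM, 1 in young CM, 1 between senescent and young CM and 2 between senescent and young co-culture. Of all genes, 0.802%, 0.785%, 0.301%, 0.409% and 0.718% passed there, in that order. DESeq2 called 2 between senescent and young co-culture (0.909% of all genes) and 1 in young CM (0.183%), and 1 fit over all groups called 1 in young CM (0.0865%). The replicate block called 1 in young CM (0.0333% of all genes) and 2 in senescent CM (1.28%). With the block, all genes called went from 117 to 321 on young ECM, from 0 to 6 in young CM and from 1716 to 2053 in young co-culture. Where numbers did not pair the samples, the block moved UNC5B in senescent co-culture past the threshold (adjusted p = 0.0131), where 9.66% of all genes passed.

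With 1 library left out, the genes passing ran from 0 to 1 on young ECM, on senescent ECM and in senescent CM, from 3 to 4 in young co-culture, from 2 to 6 in senescent co-culture, from 4 to 5 for ECM against CM, from 3 to 4 for co-culture against CM and stayed at 8 for co-culture against ECM. All genes called in those fits ran from 27 to 131 on young ECM, 12 to 36 on senescent ECM and 22 to 74 in senescent CM. They ran from 885 to 2339 in young and 782 to 2148 in senescent co-culture. Between modes they ran from 1492 to 3414 for ECM against CM, 1809 to 4729 for co-culture against CM and 4320 to 4895 for co-culture against ECM. Over all alternatives, with those leaving out a library, all genes called ran from 0 to 37, 148 and 249 between senescent and young ECM, CM and co-culture (0, 3 and 70 as reported), and against control from 1 to 368 on young ECM, 0 to 290 on senescent ECM, 0 to 109 in young CM, 0 to 284 in senescent CM, 45 to 8827 in young and 30 to 10640 in senescent co-culture. They ran from 693 to 3414 for ECM against CM, 323 to 9468 for co-culture against CM and 1840 to 6286 for co-culture against ECM. Of the 58 differences followed, RLE size factors left 57 on their side of the threshold. CXCR4 and UNC5B rest on at most 167 and 340 counts per library, and APLNR was not measurable at this depth.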

Other observations

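For each member with at least 5 CPM, the genes with the most similar pattern over the 7 group means were sought among 9927 protein-coding genes, by the root mean square difference of centred log2 means (a description with no test; the groups share libraries and scaling). KRT7, an epithelial keratin, followed APLN most closely (0.19), from 513 CPM on young ECM to 2853 CPM in senescent CM, with KRT80 and ADA next. DHRS9 was nearest to ESM1 (0.12), then SULT1B1 and INHBA, the activin A subunit, at 19.1 CPM in young co-culture and 70.8 CPM on young ECM. IL11, a cytokine of the interleukin-6 family, was nearest to ANGPTL4 (0.086). LTBP3, a binding protein of latent TGF-beta, was nearest to ROBO4 (0.052), and ANGPTL2 came second there (0.074). ATP2A3 was nearest to PLXND1 (0.057), STING1 to SLIT2 (0.075) and SPACA9 to INSR (0.024). Among the members themselves, UNC5B and ROBO4 were the closest pair (0.14), followed by UNC5B and PLXND1 (0.22) and ROBO4 and PLXND1 (0.24), all receptors of guidance cues.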
